A study of Bos taurus with 9 samples.

Results

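Regions of the rumen epithelium that carried both H3K9ac and H3K27ac before weaning and still carried H3K27ac after weaning, without RNA polymerase II (RNA pol II) at the first time point, numbered 6493 of 74249 H3K27ac peaks before weaning, or 8.74% (95% CI 8.54 to 8.95). They were chosen by measured values. Each kept region is an H3K27ac peak before weaning that shared at least 1 bp with an H3K9ac peak before weaning and with an H3K27ac peak after weaning, and touched no RNA pol II peak before weaning. The 4 lists named in this rule therefore describe the regions and test nothing about them.

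Rumen epithelial tissue came from calves of the Holstein dairy breed, sampled once before and once after weaning. Chromatin immunoprecipitation and sequencing (ChIP-seq) was run for 4 targets with 1 library for each target and time point, which gave 8 peak lists with 130580 peaks, and a single input library without a time point served as background. No treatment or genotype was labelled, and the number of animals behind a library, any pooling and the age of the calves were not given. With 1 library per group no difference between the time points has a replicate error, and none was tested. The intervals below are 95% Wilson intervals for shares and 95% Newcombe intervals for differences of shares. They cover counting error within single libraries only, and peaks close to each other are not independent.

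In cattle the rumen is the large fermentation chamber in front of the true stomach. A calf changes from milk to solid feed at weaning, and rumen microbes ferment that feed to short-chain fatty acids, which the epithelium absorbs. Acetylation of histone H3 at lysine 9 (H3K9ac) and lysine 27 (H3K27ac) marks active promoters and enhancers, the stretches of DNA where transcription starts or from which it is controlled at a distance. H3K9ac is known mainly from active promoters, and H3K27ac from both promoters and active enhancers. RNA pol II transcribes protein-coding genes, and trimethylation of H3 at lysine 9 (H3K9me3) marks repressed heterochromatin. A ChIP-seq peak is a stretch where more fragments were recovered than in the input, so a region outside all RNA pol II peaks can still hold the enzyme below the threshold of the peak caller.

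The lists differed greatly in length, which bounds every share given here. H3K9ac had 14384 peaks before and 2127 after weaning, H3K27ac 74249 and 30446, RNA pol II 2056 and 738, and H3K9me3 2410 and 4170. The labels put the pair of H3K9ac libraries on lane 1, and those of H3K27ac and of RNA pol II on lane 2, while H3K9me3 was on lane 2 before and on lane 1 after weaning, so for this mark weaning and the lane cannot be told apart. The text of the study places the shorter RNA pol II list before weaning, whereas the labels place it after weaning, and the labels were followed. Positions are on the cattle assembly UMD3.1.1. No gene annotation or sequence of this assembly was used, so the regions are given by position only, their genes are not named, and the tissue label was not checked against marker genes.

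The kept regions were set against 3 groups of H3K27ac peaks from the same list. The lost regions were doubly acetylated before weaning, also without RNA pol II, and touched no H3K27ac peak after weaning (3831 peaks). The RNA pol II regions were doubly acetylated and touched RNA pol II before weaning (1056 peaks). The H3K27ac-only regions touched neither H3K9ac nor RNA pol II before weaning and kept H3K27ac (12949 peaks).

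The steps of the rule gave the following counts. Of all H3K27ac peaks before weaning 15.3% touched an H3K9ac peak before weaning, 27.9% an H3K27ac peak after weaning and 2.07% an RNA pol II peak before weaning. Of the 11380 doubly acetylated peaks, 10324 were free of RNA pol II, and the kept regions were 62.9% of these (62.0 to 63.8). Among the doubly acetylated peaks that did touch RNA pol II, 987 of 1056 kept H3K27ac, or 93.5%.

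The edges of the rule did not separate the peaks cleanly, since peaks lay within a few bp of each edge on both sides. The kept region nearest to RNA pol II, chr12:35868634-35869104, lay 2 bp from an RNA pol II peak, and the excluded peak with the least overlap, chr8:80835002-80836122, shared 1 bp with one. Within 100 bp of an RNA pol II peak lay 48 kept regions, and 30 of the 987 excluded peaks overlapped one by at most 100 bp. On the H3K27ac side, the kept region with the least overlap was chr10:26523023-26523720, with 6 bp, and the nearest lost region was chr5:112722730-112723531, with a gap of 6 bp. At most 100 bp of overlap was found in 42 kept regions, and a gap of at most 100 bp in 55 lost regions.

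H3K9ac after weaning, 1 of the 4 lists that the rule did not use, was more frequent at the kept than at the lost and the H3K27ac-only regions, and less frequent than at the RNA pol II regions. The order against the RNA pol II regions follows the labels, and no value for that group was computed with the RNA pol II lists exchanged. H3K9ac after weaning was found at 687 of the 6493 kept regions, or 10.6% (9.86 to 11.4), compared with 2.01% of all H3K27ac peaks before weaning. Those peaks are not matched to the kept regions. Only 27.9% of them touched an H3K27ac peak after weaning, and their median width was 343 bp, against 851 bp. At the lost regions H3K9ac after weaning was found at 55 of 3831, or 1.44% (1.10 to 1.86). The kept regions were thus higher by 9.14 percentage points (8.30 to 9.98), a ratio of 7.37. In 662 of the 687 kept regions with H3K9ac after weaning, it touched an H3K27ac peak after weaning. By the rule that H3K27ac list separates the kept from the lost regions, so their difference is not independent of the rule. The share was higher in the kept than in the lost regions on each of the 30 chromosomes (1 to 29 and X), although 6 chromosomes had no lost region with the mark.

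The same mark also separated the kept regions from H3K27ac peaks that had kept H3K27ac but lacked H3K9ac before weaning. Of the H3K27ac-only regions 394 of 12949 touched H3K9ac after weaning, or 3.04% (2.76 to 3.35), 7.54 points below the kept regions (interval of the difference 6.75 to 8.36). With the kept regions weighted to the widths of the H3K27ac-only regions their share was 7.29%, against 3.04%, a weighting chosen after the data had been seen. The RNA pol II regions had more of it, 168 of 1056 or 15.9% (13.8 to 18.2), 5.33 points above the kept regions (3.11 to 7.77). That last difference was largest in the narrowest peaks. Of the 48 RNA pol II regions up to 400 bp wide 26 touched H3K9ac after weaning, or 54.2% (40.3 to 67.4), against 4.97% of the kept regions of that width. Over 400 and up to 600 bp the share was 11.7% against 6.10%, 5.55 points above the kept regions (0.441 to 13.3). In the 3 wider classes the intervals of the difference included 0. The shares were 9.85% against 9.17% up to 800 bp, 11% against 11.5% up to 1000 bp and 16.2% against 14.1% over 1000 bp. With the kept regions weighted to the widths of the RNA pol II regions the share was 11.9%, against 15.9%, a weighting chosen after the data had been seen.

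**Figure D1:**
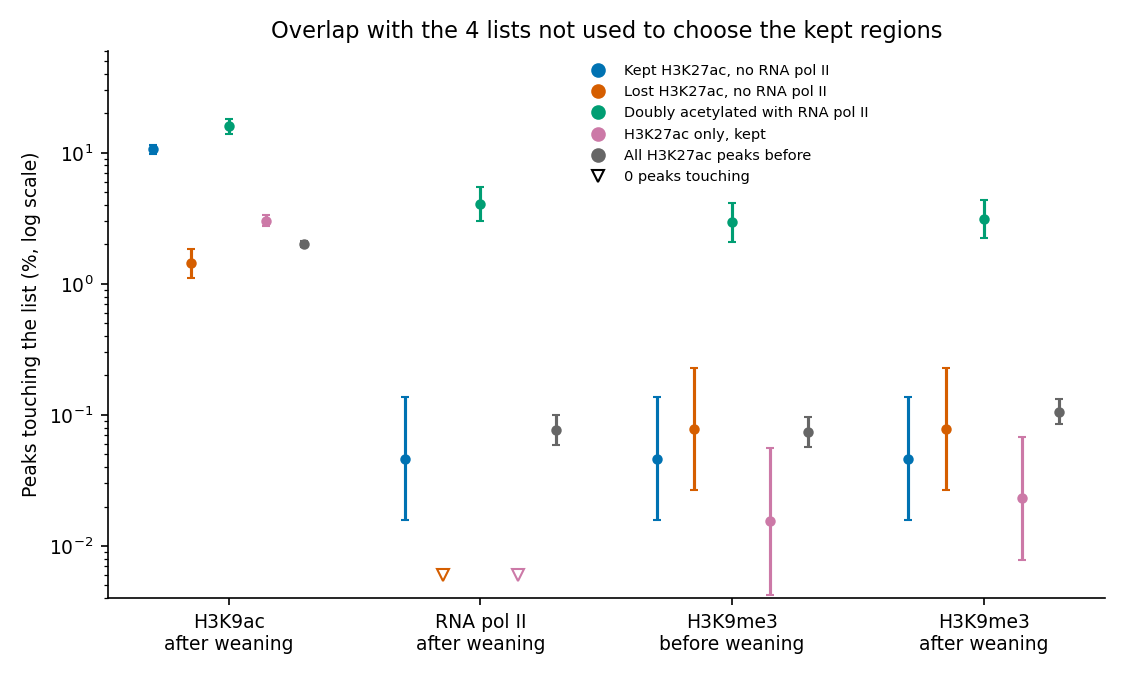
Share of peaks in percent (log axis) that touched each of the 4 lists not used to choose the kept regions, for the kept regions, the 3 comparison groups and all H3K27ac peaks before weaning. Points are shares, bars are 95% Wilson intervals and open triangles mark groups with 0 peaks touching. H3K9ac after weaning was found at 10.6% of the kept and 1.44% of the lost regions, while RNA pol II after weaning and both H3K9me3 lists met the RNA pol II regions in 2.94 to 4.07% and the kept regions in 0.0462%.

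Wide peaks can touch another list more easily, so the share was taken within classes of width. In kept regions up to 400 bp wide 4.97% touched H3K9ac after weaning (3.41 to 7.18), against 1.15% of the lost regions of that width (0.708 to 1.86). The share in the kept regions was higher in each wider class, reaching 14.1% over 1000 bp (12.8 to 15.5), whereas in the lost regions it was 1.76% (0.855 to 3.59). Over all H3K27ac peaks before weaning, a list that includes the 2501 kept regions among its 5512 peaks over 1000 bp, the share was 0.686% up to 400 bp (0.613 to 0.768) and 9.71% over 1000 bp (8.95 to 10.5). The difference was 3.82 points in the narrowest class (2.11 to 6.08) and 12.3 points in the widest (10.1 to 14.0), with an interval above 0 in all 5 classes. The H3K27ac-only regions ran between, from 2.14% up to 400 bp to 5.44% over 1000 bp. With the kept regions weighted to the widths of the lost regions, the share with H3K9ac after weaning was 7.60%. In the central 200 bp of each region it was 7.08% of the kept regions (6.49 to 7.73) and 1.15% of the lost regions (0.857 to 1.54), against 1.47% of all H3K27ac peaks before weaning (1.39 to 1.56). These last 2 measures were chosen after the data had been seen.

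**Figure D2:**
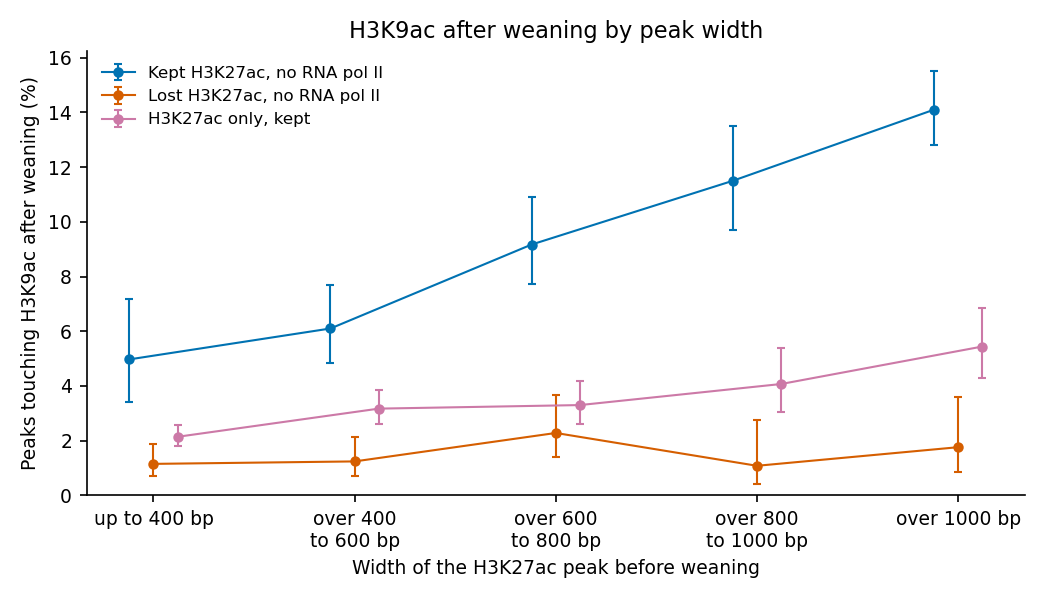
Share of peaks in percent that touched an H3K9ac peak after weaning, by the width of the H3K27ac peak before weaning, for kept, lost and H3K27ac-only regions (points, with bars for 95% Wilson intervals). The kept regions lie above both other groups in each class, from 4.97% in the narrowest to 14.1% in the widest, while the lost regions stay between 1.08 and 2.28%.

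Among the kept regions, H3K9ac after weaning went with the width of the H3K27ac peak that remained. The kept regions were split at the quartiles of the width of their widest H3K27ac peak after weaning. Where it was up to 279 bp, 3.73% touched H3K9ac after weaning (2.91 to 4.76). The share was 6.45% from 280 to 389 bp, 11.5% from 390 to 555 bp and 20.7% (18.8 to 22.7) from 556 bp upward. With the same bounds, the H3K27ac-only regions ran from 1.37% to 7.15%. The kept regions were higher by 2.35 points (1.47 to 3.42) in the narrowest class and by 13.5 points (11.1 to 15.9) in the widest. This split did not hold the width before weaning, with medians of 851 bp for the kept and 451 bp for the H3K27ac-only regions. The median of the widest H3K27ac peak after weaning was 273 bp in kept regions up to 400 bp and 483 bp in those over 1000 bp. The trend and the difference therefore cannot be told apart from the width before weaning. The 687 regions with both acetylations at both time points had a median width of 1012 bp before weaning, against 833 bp for the other 5806. Their widest H3K27ac peak after weaning had a median of 538 bp against 374 bp, and their widest H3K9ac peak before weaning 371 bp against 296 bp. More than 1 H3K9ac peak before weaning was found in 24.5% of them and in 13.5% of the others.

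By the labels, RNA pol II after weaning was rare at the kept regions. It touched 3 of 6493, or 0.0462% (0.0157 to 0.136), near the 0.0768% of all H3K27ac peaks before weaning. It touched 0 of the 3831 lost regions, which allows a share of up to 0.0783% by 3 counts of the total (upper Wilson limit 0.1%), so a difference between kept and lost regions was not detectable. It also touched 0 of the 12949 H3K27ac-only regions, 0.0462 points below the kept regions (interval of the difference 0.00367 to 0.136), a difference that rests on 3 regions. The RNA pol II regions, which had the enzyme before weaning, touched it after weaning in 43 of 1056 cases, or 4.07% (3.04 to 5.44), 4.03 points more than the kept regions (2.99 to 5.39). The list after weaning holds only 738 peaks. These shares depend on the order of the RNA pol II lists. With the lists exchanged, as in the text of the study, the rule gave 7435 kept regions, of which 945 touched the longer list, or 12.7% (12.0 to 13.5), against 68 of 3899 lost regions, or 1.74% (1.38 to 2.20), and 2.07% of all H3K27ac peaks before weaning. Exchanging the lists also changes which peaks are RNA pol II regions. No value for them was computed in that order, so their 4.07% and the difference of 4.03 points hold for the labels only. The comparison with the lists exchanged was chosen after the data had been seen.

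The 3 kept regions that touched RNA pol II after weaning were chr8:78278506-78281071, chr17:65220595-65221587 and chr2:54102723-54103303. In the region on chromosome 8, 2566 bp wide, there were 3 H3K9ac peaks before and 3 H3K27ac peaks after weaning, and an RNA pol II peak of 200 bp after weaning at chr8:78279273-78279472. That RNA pol II peak lay within the widest of the H3K27ac peaks after weaning, chr8:78279046-78280089 (1044 bp). On chromosome 17 the RNA pol II peak was also 200 bp wide, and on chromosome 2 it was 203 bp. The region on chromosome 2 was the only one of the 3 with H3K9ac after weaning.

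H3K9me3 was equally rare at the kept regions. Before weaning it touched 3 of them, or 0.0462% (0.0157 to 0.136), against 0.0741% of all H3K27ac peaks, and after weaning again 3, against 0.106% of all. The lost regions had 3 at each time point, or 0.0783% (0.0266 to 0.230). The difference between kept and lost regions was 0.0321 points in favour of the lost regions at both times, with an interval from 0.187 points more in the lost to 0.0713 points more in the kept regions. The RNA pol II regions, formed by the order of the labels, touched H3K9me3 in 2.94% of cases before weaning (2.08 to 4.14) and in 3.12% after weaning (2.23 to 4.36). The kept regions were 2.89 points lower than these before weaning (2.02 to 4.09) and 3.08 points lower after weaning (2.18 to 4.31).

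No kept region met H3K9me3 at both time points. Before weaning the mark touched chr7:41779572-41780345, chr26:44653394-44654048 and chr7:47449761-47450877. After weaning it touched chr2:89928028-89928711, chr23:24721526-24722205 and chr3:113899200-113899670, with peaks of 200, 200 and 207 bp. None of the last 3 had H3K9ac after weaning. A 2 Mb stretch of chromosome 17 that was left out as an alternative contained 9 H3K27ac peaks before weaning and 0 kept regions.

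Most kept regions touched only 3 lists, the acetylation lists that define them. These were 5800 regions, or 89.3%, while 690 touched 4 lists and 3 touched 5. The 3 with the most lists were compact. At chr2:54102723-54103303 (581 bp), H3K9ac before (448 bp), H3K27ac after (445 bp) and H3K9ac after weaning (593 bp) all started at the same base, position 54102842, and RNA pol II after weaning lay inside them. At chr26:44653394-44654048 (655 bp), the H3K27ac peak after weaning began at the same base as the one before and was 701 bp wide, so it was wider after weaning. There the H3K9ac peaks before and after weaning were 372 and 373 bp wide, together with an H3K9me3 peak before weaning of 339 bp. At chr7:41779572-41780345 (774 bp), the H3K9ac peaks were 381 and 324 bp, the H3K27ac peak after weaning 390 bp and the H3K9me3 peak before weaning 349 bp. Next in this order, with 4 lists each, came the widest 2 regions with H3K9ac after weaning, both on chromosome 5 and described with the widest regions.

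The kept regions were wide H3K27ac peaks, a property that the rule favours, since a wide peak meets other lists more easily. Their median width was 851 bp (839 to 865), with an interquartile range of 601 to 1226 bp. The median was 501 bp for the lost regions, 1104 bp for the RNA pol II regions, 451 bp for the H3K27ac-only regions and 343 bp for all H3K27ac peaks. Over 1000 bp were 2501 kept regions, or 38.5%, and 10.4% of the lost regions. Summed over the genome the kept regions covered 6.30 Mb of the 34.9 Mb under H3K27ac before weaning.

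The H3K27ac peaks of the kept regions after weaning were narrower, and most regions held 1. The widest H3K27ac peak after weaning in a kept region had a median of 389 bp (interquartile range 279 to 555), and its median ratio to the width before weaning was 0.491, against 0.716 in the H3K27ac-only regions. The whole H3K27ac list was also narrower after weaning, with a median of 290 bp against 343 bp, and the rule favours regions that were wide before. It was wider than the peak before in 339 kept regions, or 5.22%, and in 24.2% of the H3K27ac-only regions, whose peaks before weaning were narrower. A single H3K27ac peak after weaning was found in 5095 kept regions, 2 in 1158, 3 in 203 and 4 or more in 37. Several peaks after weaning lay in 45.4% of the regions over 1000 bp and in 1.64% of those between 400 and 600 bp.

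The peaks of the other lists filled part of each region. H3K27ac after weaning covered a median of 55% of a kept region (interquartile range 38.7 to 72.5), and H3K9ac before weaning covered 41.2% (28.4 to 57.6). Where H3K9ac was present after weaning it covered a median of 26.2%. Both median shares fell with width, from 77.5% for H3K27ac after weaning and 70.1% for H3K9ac before weaning in regions up to 400 bp to 47.8% and 30% in those over 1000 bp.

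**Figure D3:**
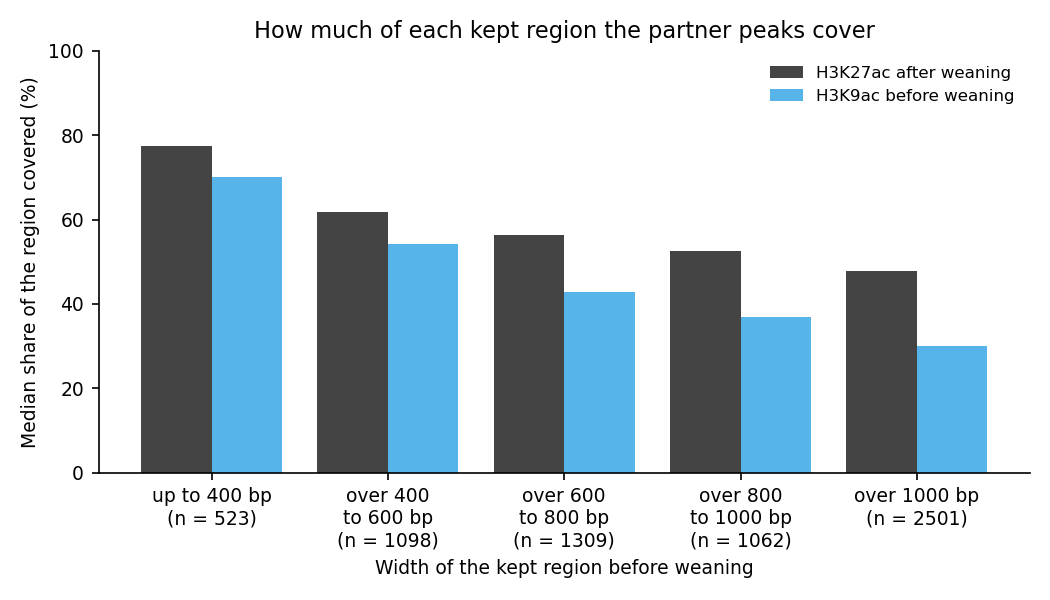
Median share of a kept region in percent that was covered by H3K27ac peaks after weaning and by H3K9ac peaks before weaning, by the width of the region before weaning, with the number of regions under each class. Bars are medians over regions of single libraries. Coverage falls from 77.5% and 70.1% in the narrowest class to 47.8% and 30% in the widest.

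The positions of H3K9ac before weaning and H3K27ac after weaning within the kept regions are given as a description, since the rule used both lists and each covers much of a region. In 6056 of 6493 regions, or 93.3% (92.6 to 93.9), an H3K27ac peak after weaning touched an H3K9ac peak before weaning directly. In the 4637 regions with 1 peak of each list, the centres of these peaks were a median of 75 bp apart (interquartile range 28 to 160). The H3K9ac centre was a median of 93 bp from the centre of the region and the H3K27ac centre 90 bp. The H3K27ac centre was nearer to the H3K9ac centre than to the centre of the region in 2337 of these regions, or 50.4% (49.0 to 51.8). Where both centres were more than 50 bp off the centre of the region, they lay on the same side of it in 1751 of 2376 regions, or 73.7% (71.9 to 75.4). Deposited lists give no summits, so centres are midpoints of peaks.

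The position of H3K9ac after weaning within the regions is likewise a description, since H3K27ac peaks after weaning and H3K9ac peaks before weaning, which each region holds by the rule, covered medians of 63.5% and 43.9% of the regions with this mark. In the 687 kept regions that had it, it touched the earlier H3K9ac peak in 620, or 90.2% (87.8 to 92.2), and an H3K27ac peak after weaning in 662, or 96.4% (94.7 to 97.5). In the 510 regions with 1 H3K9ac peak at each time point, the centres were a median of 81 bp apart (29 to 154). Where both lay over 50 bp off the centre of the region, they were on the same side in 252 of 317 regions, or 79.5% (74.7 to 83.6).

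**Figure D4:**
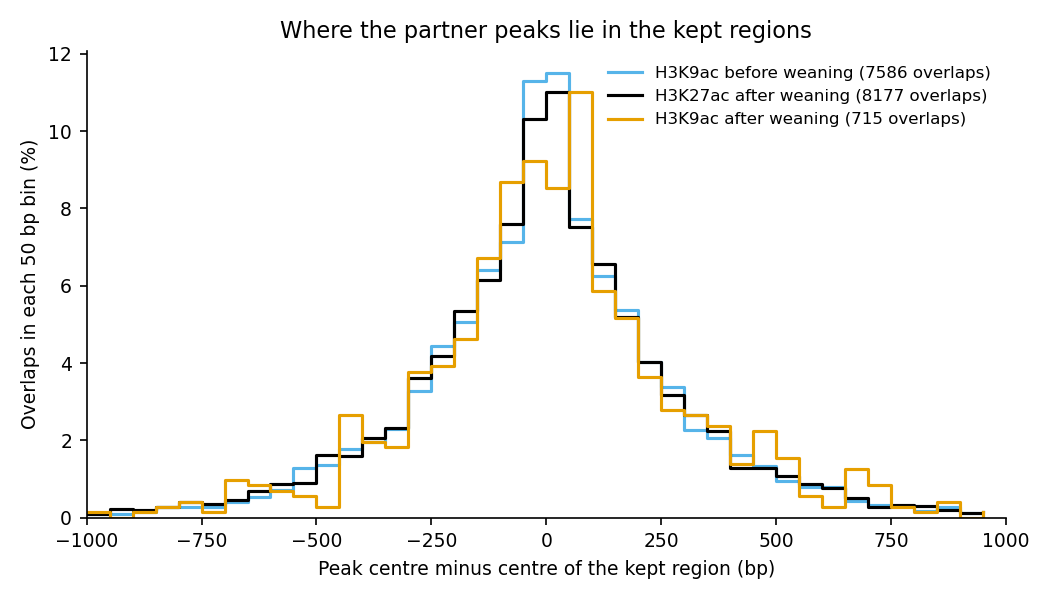
Distribution of the centres of H3K9ac peaks before weaning, H3K27ac peaks after weaning and H3K9ac peaks after weaning around the centre of the kept region they touched (distance in bp, bins of 50 bp, in percent of overlaps). The 3 distributions are centred on the region, and the H3K9ac distribution after weaning rests on 715 overlaps and is the most uneven.

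The kept regions took different shares of each list. They contained or touched 7568 of the 14384 H3K9ac peaks before weaning, or 52.6%, 8139 of the 30446 H3K27ac peaks after weaning, or 26.7%, and 715 of the 2127 H3K9ac peaks after weaning, or 33.6%. The H3K27ac peaks after weaning at kept regions had a median width of 352 bp, against 274 bp for the rest of that list. The rule chose the kept regions by overlap with the H3K9ac list before and the H3K27ac list after weaning. It therefore sets their shares in part and favours wide peaks. No such share was computed for the comparison groups. Few peaks linked kept regions to each other. An H3K27ac peak after weaning spanned 2 or more kept regions in 38 cases, which involved 76 regions, and an H3K9ac peak before weaning did so in 18 cases.

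The 5 widest kept regions show how the marks were arranged within 1 peak. The widest, chr24:37937384-37943141 (5758 bp), held 5 H3K9ac peaks of 200 to 516 bp before weaning and 8 H3K27ac peaks of 214 to 932 bp after weaning, the most of any kept region, which left 50.2% of it covered. It had no H3K9ac after weaning. The broadest of the 8, chr24:37939953-37940884, spanned the H3K9ac peaks at chr24:37940058-37940257 and chr24:37940342-37940701.

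On chromosome 5, chr5:28064219-28069144 (4926 bp) held 4 H3K9ac peaks before and 4 H3K27ac peaks after weaning. Its H3K9ac peak after weaning, chr5:28067617-28067853 (237 bp), lay within the H3K9ac peak before weaning at chr5:28067540-28068089. The H3K27ac peak after weaning at the same place, chr5:28067618-28068885 (1268 bp), was the widest of the 4 and began 1 bp further on. The second wide region of that chromosome, chr5:57125930-57130661 (4732 bp), held 3 H3K9ac peaks before and 5 H3K27ac peaks after weaning. Here H3K9ac after weaning, at chr5:57129687-57130020 (334 bp), lay outside the 3 earlier H3K9ac peaks, the last of which ended at 57129470, and overlapped the H3K27ac peak after weaning at chr5:57129588-57129950.

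The other 2 lacked H3K9ac after weaning. At chr3:20182720-20187513 (4794 bp) there were 7 H3K9ac peaks before weaning, the most in any kept region, and 2 H3K27ac peaks after weaning of 752 and 1348 bp. The first of these 2 began at 20184712, so the first 3 H3K9ac peaks, up to 20184111, lay in the stretch where H3K27ac was no longer called. At chr7:13532142-13536524 (4383 bp) the 4 H3K27ac peaks after weaning covered 55.5%. The last H3K9ac peak before weaning and the last H3K27ac peak after weaning there had the same start and end, chr7:13534915-13535161 (247 bp).

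RNA pol II was near some kept regions that it did not touch, which is given as a description because the rule used the RNA pol II list before weaning. An RNA pol II peak before weaning lay within 1 kb of 315 kept regions, or 4.85% (4.35 to 5.40), compared with 3.08% of the lost regions (2.58 to 3.68) and 2.11% of the H3K27ac-only regions (1.87 to 2.37). Over all 72710 H3K27ac peaks that touched no RNA pol II peak before weaning it was 1.97% (1.87 to 2.07). Within 10 kb the shares were 9.89% (9.19 to 10.6), 8.30% (7.47 to 9.22) and 6.20% (5.80 to 6.63), with 6.71% (6.53 to 6.89) over all such peaks. The median distance to the nearest RNA pol II peak before weaning was 235 kb for kept and 260 kb for lost regions. RNA pol II after weaning, by the labels, lay within 1 kb of 0.108% of the kept (0.0522 to 0.222) and 0.0783% of the lost regions (0.0266 to 0.230), at median distances of 4720 and 4564 kb. These shares rest on 7 kept and 3 lost regions. Over all 72710 H3K27ac peaks without RNA pol II before weaning the share was 0.0248% (0.0157 to 0.0391), at a median of 4734 kb. With the RNA pol II lists exchanged as in the text of the study, the list before weaning is the shorter one, and the 7435 kept regions then lay a median of 4717 kb from it, with 0.148% within 1 kb. For the lost regions of that order the values were 4571 kb and 0.0769%. For all H3K27ac peaks before weaning, those touching the list included, they were 4728 kb and 0.11%. The nearest H3K9me3 peak was a median of 938 kb away before weaning and 463 kb after weaning, close to the 969 and 467 kb of the lost regions.

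Kept regions were spread over all 30 chromosomes, at 2.44 per Mb of the span up to the last peak. Chromosome 19 had 6.06 per Mb, chromosome 18 had 5.64 and chromosome 25 had 5.01, while X had 0.242, with 36 regions. Kept regions were 11.2% of the H3K27ac peaks on chromosome 18 (10.2 to 12.3) and 3.28% on X (2.38 to 4.51), against 8.74% overall. The share of doubly acetylated peaks without RNA pol II that kept H3K27ac was between 50.7% on chromosome 27 (42.4 to 59.1) and 71.1% on chromosome 18 (67.1 to 74.8). On X it was 65.5% (52.3 to 76.6), an interval that includes the share over all chromosomes. Chromosomes are not replicates, and no test was made among them.

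**Figure D5:**
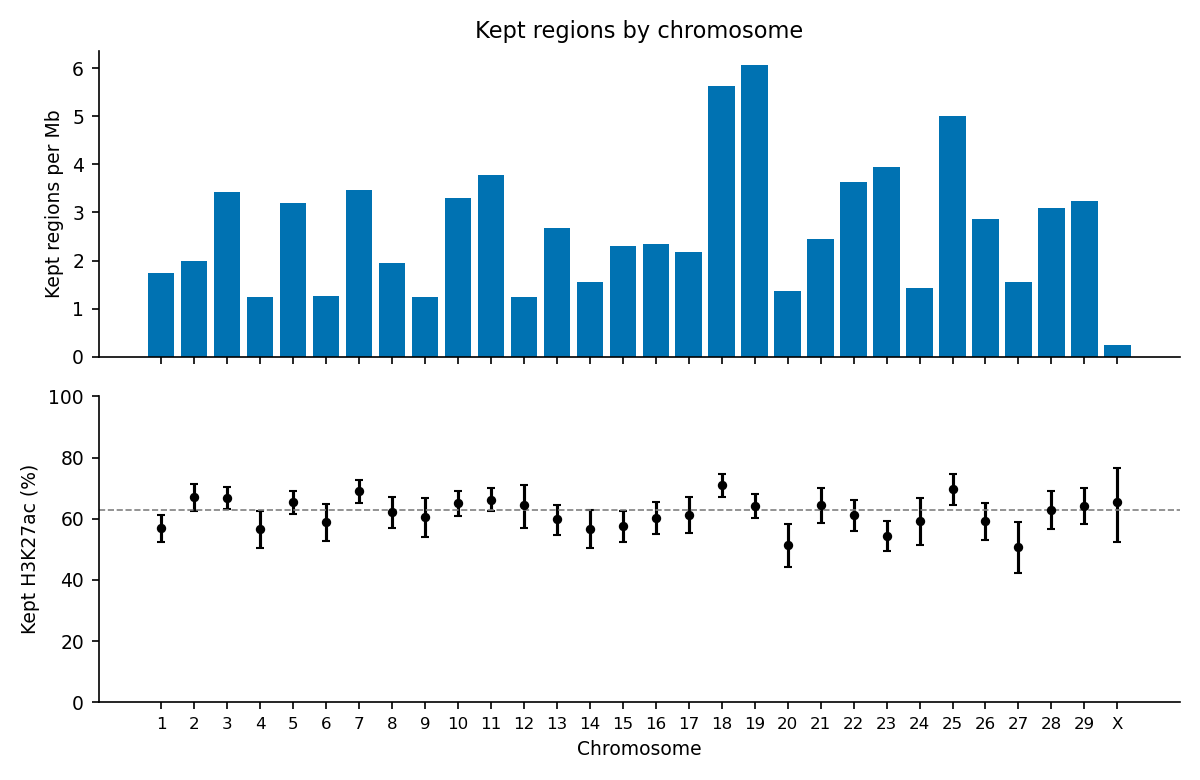
Kept regions per Mb on each chromosome (upper bars) and the share of doubly acetylated peaks without RNA pol II that kept H3K27ac, in percent, with 95% Wilson intervals (lower points). The dashed line is the share over all chromosomes, 62.9%. Density is highest on chromosomes 18, 19 and 25 and lowest on X, while the share kept lies between 50.7 and 71.1%.

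The spacing of the kept regions is given as a description. Neither gaps nor occupied windows were computed for other H3K27ac peaks. The values therefore do not show whether kept regions lie closer together than those peaks. The median gap between neighbouring kept regions was 80.3 kb (interquartile range 15.5 to 310 kb), 20.5% had another kept region within 1 kb and 37.1% within 10 kb. Windows of 1 Mb with at least 1 kept region numbered 1581 of 2675, with a median of 3 regions, and the 10 densest windows together held 273 regions, or 4.2%.

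The 3 windows with the most kept regions differed in what they held after weaning. Between 80 and 81 Mb on chromosome 10 there were 36 kept and 22 lost regions, and 10 of the 36 had H3K9ac after weaning, or 27.8%. The window between 7 and 8 Mb on chromosome 28 had 34 kept and 17 lost regions, with H3K9ac after weaning at 1 of the 34. Between 21 and 22 Mb on chromosome 10 the 28 kept regions stood beside 4 lost ones and made up 33.3% of the 84 H3K27ac peaks before weaning, and 6 of them had H3K9ac after weaning. These windows were singled out by their counts.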

How the data were processed

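ChIP-seq libraries of rumen epithelial tissue were analysed from the deposited peak lists, 1 for each of 4 targets at 2 time points. Per the methods of the study, reads of 75 nt that passed the sequencer's quality filter were aligned with BWA to UMD3.1.1 (the submitters' processing notes name UMD3.1), uniquely aligned reads were kept where they had fewer than 2 mismatches, and MACS2 called peaks against the input. The notes also list Trim Galore 0.4.1, without its role. The deposited values are chromosome, start and end of each peak, without height, fold enrichment, p-value or read depth, so no peak strength or read depth was used here. All lists share 1 input, and keeping uniquely aligned reads drops reads that align to several places. Positions were read as 1-based with both ends included, because end minus start was at least 199 bp. The number of peaks in a list depends on depth, antibody and caller threshold together, which cannot be told apart from weaning.

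Overlap meant at least 1 shared bp. Kept regions and comparison groups were formed by this rule with Python 3.11.15, numpy 2.4.6, pandas 2.3.3 and scipy 1.17.1, and the functions were tested on simulated peaks. Shares have Wilson and differences Newcombe intervals at 95%, and medians order-statistic intervals at 95%. The upper limit for a count of 0 is 3 counts of the total. No p-value was computed. Regions were named by rule: the 5 widest, the 5 touching the most lists, the 3 windows of 1 Mb with the most, and those at the RNA pol II edge of the rule. Those that met RNA pol II after weaning or H3K9me3, and those at the H3K27ac edge, were named after their values were seen. The members and lists were chosen with earlier results of these data known. The alternatives were a larger minimum overlap, a margin around RNA pol II, the RNA pol II list after weaning in place of that before, wide peaks, autosomes, leaving out a 2 Mb stretch of chromosome 17 or H3K9me3, and merged peaks. Gene names, gene lists, marker genes, distance to transcription start sites, base composition, motifs and sequences were not analysed here, since no annotation or genome of UMD3.1.1 was used.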

Additional observations from a re-analysis of the deposited data

How the results depend on the processing

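No paired analysis was possible because the result comes from no test and each group holds 1 library. Distance to transcription start sites and GC content were not run. Over 11 settings, 60 of 79 recomputed values stayed within their interval (counts within a factor of 1.5) and 19 moved outside. Leaving out the 2 Mb stretch of chromosome 17 removed no kept region, so its values, counted among the 60, repeat the main ones. A change of sign was scored only for the difference from the lost regions, and it did not occur. The number of kept regions lay between 5695 and 7435. The difference from the lost regions in the share with H3K9ac after weaning lay between 5.94 and 11.1 points.

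With H3K27ac peaks before weaning merged within 1 kb, 12.8% of the kept regions had H3K9ac after weaning, 11.1 points above the lost ones, with median widths of 1874 bp before and 409 bp after weaning and 284 kb to RNA pol II. Merging makes regions wider by construction. With the RNA pol II list after weaning used to bar regions, which is the order of time points in the text of the study, the widths were 889 and 399 bp, the distance to the list labelled before weaning, which regions may then touch, 169 kb (4717 kb to the list labelled after) and the share touching that list 0 by construction, while 12.7% touched the other RNA pol II list (0.0462% by the labels). With peaks wider than the median alone, the widths were 881 and 397 bp. A margin of 1 kb around RNA pol II gave a distance of 266 kb. Without regions touching H3K9me3 both H3K9me3 shares were 0 by construction. Of the settings chosen after seeing the data, the central 200 bp gave 7.08% with H3K9ac after weaning, 5.94 points above the lost regions, and 0.0154% with H3K9me3 after weaning, and weighting to the widths of the lost regions gave a difference of 6.16 points. The shares with RNA pol II after weaning and H3K9me3 rest on 3 regions each. Depth is not held by the peak lists and was not used.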

Other observations

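The nearest other doubly acetylated peak without RNA pol II had itself kept H3K27ac for 67.3% of the kept regions (95% Wilson interval 66.2 to 68.5, n = 6493) and for 54.8% of the lost regions (53.2 to 56.4, n = 3831). Of all 10324 doubly acetylated peaks without RNA pol II, 62.9% had kept it. When that neighbour lay within 1 kb the shares were 73.7% (71.6 to 75.7) and 54.8% (51.5 to 58.1), and when it lay over 50 kb away they were 65.8% (63.6 to 68.0) and 58.6% (55.5 to 61.6). Neighbouring peaks can count each other, so the intervals are too narrow, and the pattern was chosen after the data had been seen. It comes from the lists that the rule used and is a description only.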
